A study of Mus musculus with 8 samples.

Results

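Expression of 10 regulators of thymic medullary epithelium was followed across the arrays of a study of the intestinal homeobox gene Cdx1. The regulators were chosen by name: Aire, Fezf2, Foxn1, Relb, Nfkb2, Prdm1, Chd4, Hipk2, Cd80 and Cd86, which are 10 of the 25273 genes tested, and every probe that the scanner files name after one of them was used, 15 of the 55669 probes read. Medullary thymic epithelial cells (mTEC) present proteins typical of other organs to developing T cells, so that T cells reactive to the body's own proteins can be removed or diverted. That display, called ectopic expression, depends on transcriptional regulators such as Aire and Fezf2. Mature mTEC also carry the costimulatory ligands CD80 and CD86, and their formation depends on the forkhead factor Foxn1 and on the noncanonical NF-kB pathway, in which Relb pairs with the processed product of Nfkb2.

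The samples were 3 Cdx1-/- mTEC, 3 Cdx1+/+ mTEC, 1 small intestine epithelial sample (SIEC) labelled Cdx1-/- and 1 SIEC sample labelled Cdx1+/+, from mice of mixed C57BL/6 and 129 background, each hybridised to 1 array with Cy3. Both mTEC groups were sorted as live cells positive for Epcam and UEA1, negative for CD45, and with much CD80 and MHC class II on their surface, from 4 to 6 pooled thymi per sample, and SIEC were live Epcam-positive, CD45-negative cells pooled from 3 mice. The CD80 gate means that the presence of Cd80 in mTEC was in part a sorting criterion. The submitters speak of 3 replicates per group, of which 1 intestine array per genotype was analysed here, and ages, the deleted part of Cdx1 and the tissues in which it is lost are not given in the sources used here. Because mice were pooled, p-values measure the spread between pools and not between animals.

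A level here is the log2 signal of a probe minus the 75th percentile of its array, so levels compare 1 probe between samples and never 2 probes with each other. Of 59305 spots per array, the share well above background was 58.6% to 59.2% in Cdx1-/- mTEC, 59.1% to 63.5% in Cdx1+/+ mTEC and 44.6% to 46.3% on the SIEC arrays. The number of arrays limits the precision. Cdx1, read by a probe near the end of its transcript that checks the allele little, was 4.93 ± 0.11 in Cdx1-/- and 5.91 ± 0.04 in Cdx1+/+ mTEC (SD, n = 3 each), a log2 difference of −0.99 (limma, adjusted p = 0.00522). On the SIEC arrays it went against the labels, with 6.48 under the label Cdx1-/- and 4.87 under the label Cdx1+/+, so directions between the SIEC arrays are given by label only. All 11 tested markers of mature mTEC were well above background on all 6 mTEC arrays, and 9 were higher and 2 lower in mTEC than in SIEC. All 10 tested small intestine markers were lower in mTEC.

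The probes that the results turn on lie, by the files' mm9 coordinates, at chr10:77498487-77498546 and chr10:77502740-77502799 for Aire (probes 1 and 2, minus strand), at chr14:13175057-13175116 for Fezf2 (minus strand), and at chr11:78171867-78171926 for Foxn1 (minus strand). For Relb they lie at chr7:20191722-20191781, chr7:20191773-20191832 and chr7:20203058-20203117 (probes 1 to 3, minus strand). Probes 1 and 2 of Relb overlap each other. The Nfkb2 probe lies at chr19:46386146-46386285 (plus strand), where 60 bases cover 140 bases of the genome and so cross an intron. The probe of Prdm1 lies at chr10:44157089-44157148 (minus strand), that of Chd4 at chr6:125080458-125080517 (plus strand), and those of Hipk2 at chr6:38648097-38648156 and chr6:38768232-38768291 (probes 1 and 2, minus strand). Those of Cd80 lie at chr16:38486772-38486831 and chr16:38479343-38479402 (probes 1 and 2, plus strand) and that of Cd86 at chr16:36603961-36604020 (minus strand). No member lies on the chromosome of Cdx1. The contrasts between mTEC and SIEC and between a gene's probes rest on these probes, of which only some are printed. The 6 probe sequences below are each the whole 60-base probe from the 5′ end, with 41.7% to 55% G and C.
Aire probe 1: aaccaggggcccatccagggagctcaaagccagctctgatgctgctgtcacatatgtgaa
Aire probe 2: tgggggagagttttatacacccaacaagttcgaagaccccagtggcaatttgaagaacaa
Fezf2: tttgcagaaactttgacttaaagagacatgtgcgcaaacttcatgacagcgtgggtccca
Nfkb2: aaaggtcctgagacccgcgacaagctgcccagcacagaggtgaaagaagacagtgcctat
Hipk2 probe 2: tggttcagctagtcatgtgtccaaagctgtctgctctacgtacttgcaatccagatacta
Cd80 probe 2: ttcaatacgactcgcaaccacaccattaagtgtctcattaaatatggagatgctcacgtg

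All 15 probes were well above background on all 6 mTEC arrays, so no member was lost to the filter on dim probes. Between the mTEC genotypes, Cd86 passed the test, and it rose by a small amount. For Aire, Fezf2 and Foxn1 the difference between genotypes, at the brightest probe of each gene, was at most 0.03 in size on the log2 scale. Relb, Nfkb2 and Hipk2 were lower on every Cdx1-/- array than on any Cdx1+/+ array and did not pass. In all, 1 of 10 members passed, upward, where 11.1% of all genes tested passed, 5.37% upward and 5.76% downward, and at the level of single probes 0 of 15 passed (limma) against 8.64% of all probes. At an unadjusted p under 0.05 there were 3 members, against 29.6% of genes, and 4 probes, against 27.7% of probes. The groups did not overlap in 4 members, 1 higher and 3 lower, where 37% of genes did not, 19.6% higher and 17.4% lower. The members' median difference was −0.04, and their median absolute difference 0.07, against 0.00 and 0.21 over all genes. A lower signal in these bulk samples can come from fewer cells of a type or from less RNA per cell, which cannot be told apart.

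**Figure D1:**
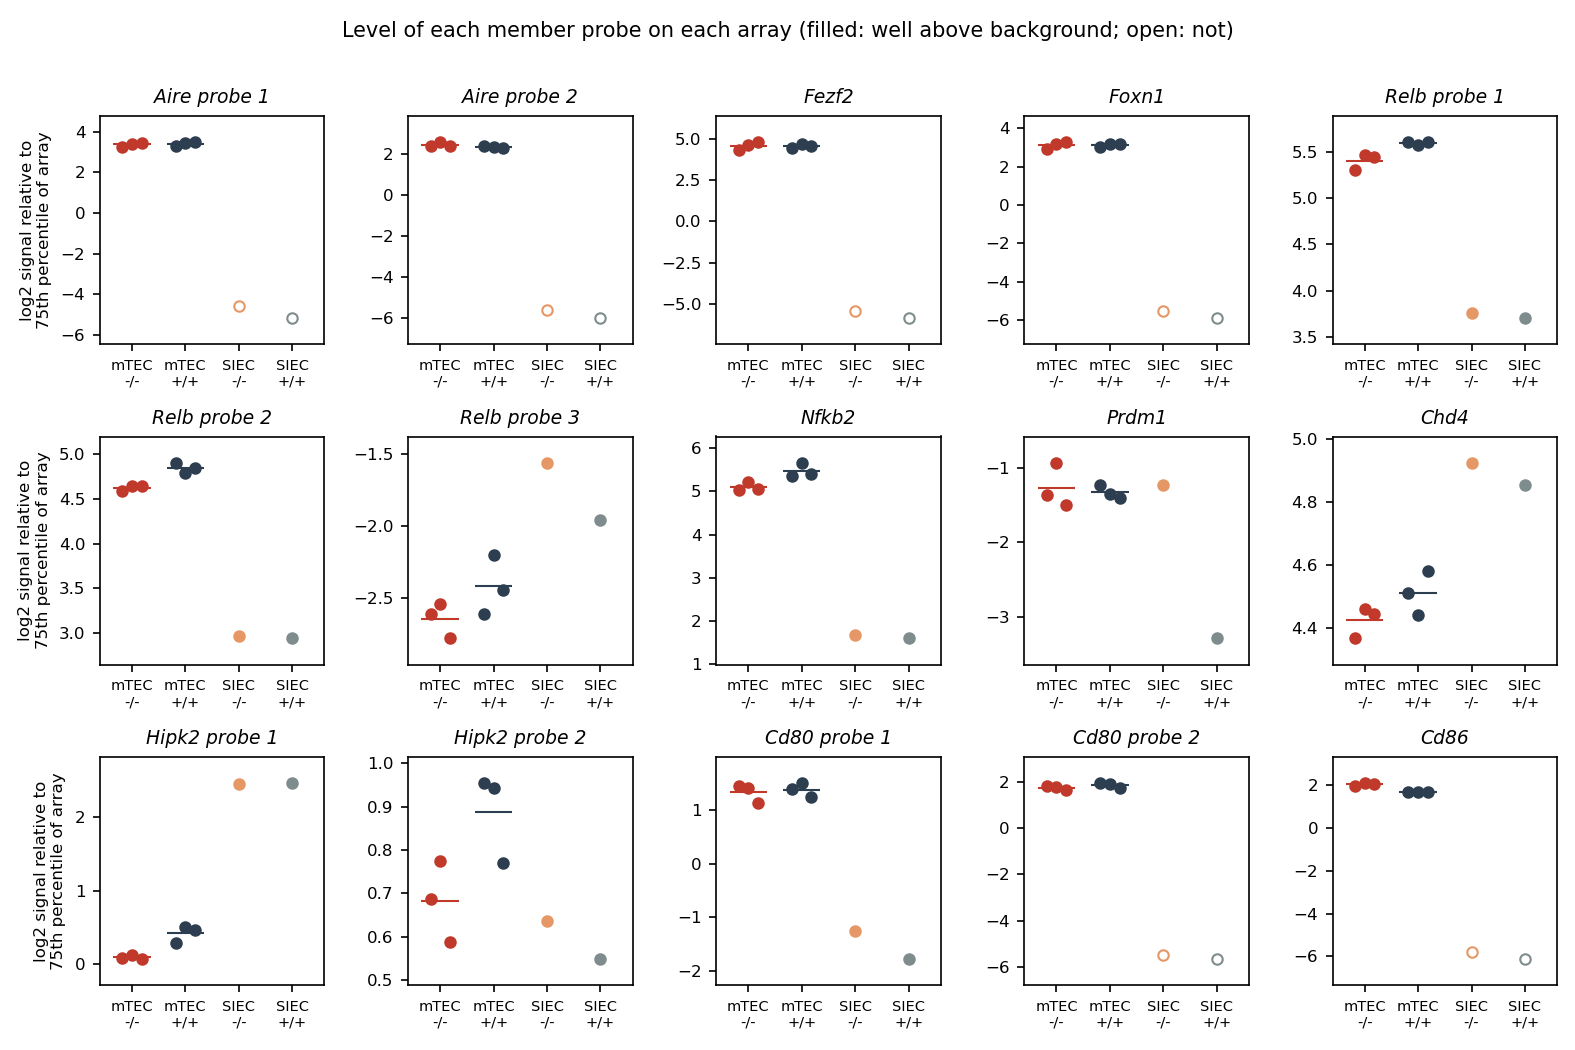
Level of each of the 15 probes (log2 signal above the array's 75th percentile, a separate vertical scale in each panel) on each array, by group, with replicates in number order and lines at the means of groups of 3. Filled points were well above background and open points were not; Aire, Fezf2, Foxn1, Cd86 and probe 2 of Cd80 are open on both SIEC arrays.

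Aire, the autoimmune regulator that drives expression of many tissue-restricted genes in mTEC, read 3.27, 3.42 and 3.46 at probe 1 on the Cdx1-/- arrays and 3.32, 3.44 and 3.49 on the Cdx1+/+ arrays. The 2 groups overlapped throughout. The log2 difference was −0.03 (SE 0.09, 95% interval −0.26 to 0.20, adjusted p = 0.861). Probe 2, from another place in the transcript, read 2.37, 2.57 and 2.40 on Cdx1-/- arrays and 2.37, 2.34 and 2.30 on Cdx1+/+ arrays, a difference of 0.11 (SE 0.09, adjusted p = 0.459 over probes). At this probe the groups did not overlap, the lowest Cdx1-/- value lying above the highest Cdx1+/+ value in the third decimal. The probes thus differed in sign, and neither passed.

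Fezf2, a zinc finger factor that directs a further set of ectopic genes, read 4.29, 4.60 and 4.79 in Cdx1-/- and 4.44, 4.66 and 4.59 in Cdx1+/+ mTEC. The Cdx1-/- values lay on both sides of the others. The difference was −0.00 (SE 0.14, 95% interval −0.35 to 0.35, adjusted p = 0.991). Foxn1, the factor that thymic epithelium needs to differentiate, read 2.94, 3.17 and 3.27 in Cdx1-/- and 3.02, 3.18 and 3.17 in Cdx1+/+ mTEC, a difference of 0.00 (SE 0.11, 95% interval −0.27 to 0.27, adjusted p = 0.995). Its groups overlapped as well.

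Chd4, the ATPase of the NuRD chromatin remodelling complex, described to act with Aire and with Fezf2 in mTEC, read 4.37, 4.46 and 4.45 in Cdx1-/- and 4.51, 4.44 and 4.58 in Cdx1+/+ mTEC. These groups overlapped, with a difference of −0.09 (SE 0.08, adjusted p = 0.527). Hipk2, a nuclear kinase described to phosphorylate Aire, read 0.08, 0.12 and 0.07 at probe 1 in Cdx1-/- mTEC and 0.29, 0.50 and 0.47 in Cdx1+/+ mTEC. Every Cdx1-/- array was below every Cdx1+/+ array. The difference was −0.33 (SE 0.09, 95% interval −0.55 to −0.11, adjusted p = 0.0677), which did not pass. Probe 2 of Hipk2 read 0.69, 0.78 and 0.59 in Cdx1-/- and 0.95, 0.94 and 0.77 in Cdx1+/+ mTEC, and here the groups overlapped, with a difference of −0.21 (adjusted p = 0.237 over probes).

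Relb, the NF-kB unit that medullary epithelium needs to form, read 5.30, 5.46 and 5.44 at probe 1 in Cdx1-/- and 5.60, 5.57 and 5.60 in Cdx1+/+ mTEC. The groups did not overlap. The difference was −0.19 (SE 0.08, 95% interval −0.39 to 0.01, adjusted p = 0.193). The overlapping probe 2 gave −0.22 (adjusted p = 0.146 over probes), also with no overlap, and the distant probe 3 gave −0.22 (adjusted p = 0.321) with groups that overlapped. Nfkb2, whose product is processed to the partner of Relb, read 5.03, 5.22 and 5.06 in Cdx1-/- and 5.35, 5.67 and 5.40 in Cdx1+/+ mTEC. Each Cdx1-/- array was again below each Cdx1+/+ array. The difference was −0.37 (SE 0.12, 95% interval −0.65 to −0.09, adjusted p = 0.0949).

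Prdm1, a transcriptional repressor also known as Blimp1, read −1.36, −0.93 and −1.50 in Cdx1-/- and −1.23, −1.35 and −1.40 in Cdx1+/+ mTEC. The Cdx1-/- arrays held both the highest and the lowest of these 6 values. The difference was 0.06 (SE 0.16, adjusted p = 0.832).

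Cd80, the ligand used in the sort gate, read 1.46, 1.42 and 1.13 at probe 1 in Cdx1-/- and 1.40, 1.51 and 1.25 in Cdx1+/+ mTEC, a difference of −0.05 (SE 0.12, adjusted p = 0.825). Probe 2 read 1.79, 1.77 and 1.64 in Cdx1-/- and 1.93, 1.92 and 1.74 in Cdx1+/+ mTEC, a difference of −0.13 (adjusted p = 0.44 over probes). The groups overlapped at both probes. Both genotypes were sorted for much CD80 on their surface, so the gate limits how far Cd80 could differ between them.

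Cd86, the other ligand of the same T cell receptors and not part of the gate, read 1.97, 2.10 and 2.08 in Cdx1-/- and 1.69, 1.69 and 1.71 in Cdx1+/+ mTEC. The 3 Cdx1+/+ arrays were nearly equal, and all 3 Cdx1-/- arrays were above them. The difference was 0.35 (SE 0.08, 95% interval 0.16 to 0.54), or 1.28-fold, with an adjusted p of 0.0398 by limma over genes and 0.0506 over probes. The call was close to the threshold. It held in 7 of 17 alternatives, of which median scaling and the authors' deposited table gave the same fit. The call ended with normexp background correction (limma, adjusted p = 0.0529), with no filter on dim probes (0.0887), with the replicate number as a block (0.0598) and without any 1 of the 6 mTEC arrays (0.06253 to 0.117). The fit without Cdx1-/- replicate 1 is also the one within slide 1. In all alternatives the difference stayed between 0.33 and 0.39.

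**Figure D2:**
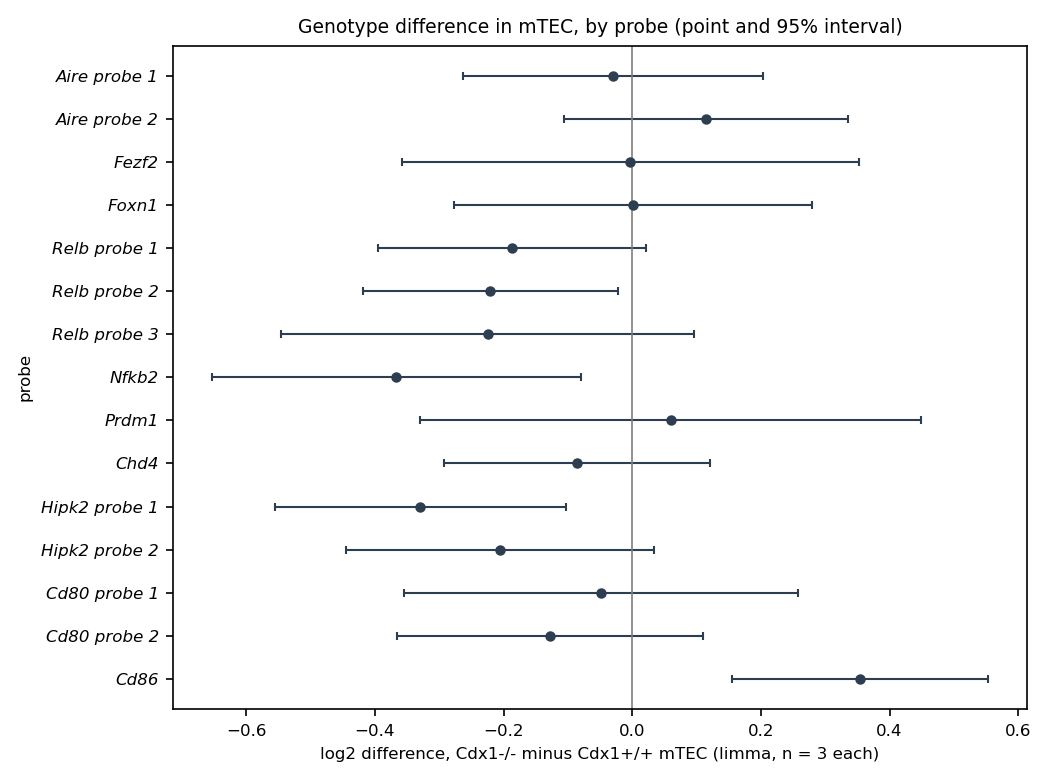
Log2 difference between Cdx1-/- and Cdx1+/+ mTEC (horizontal axis, limma, 3 arrays each) for each of the 15 probes, with 95% intervals from the fit over probes. Cd86 lies highest at 0.35, the intervals of Hipk2 probe 1, Nfkb2 and Relb probe 2 lie below 0, and no probe passed after adjustment over all probes.

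CD86 is also carried by dendritic cells, macrophages and B cells, and genes that mark such cells gave signal in the mTEC samples, which were sorted as CD45-negative. Of the 14 listed markers of dendritic cells and macrophages 13 were tested, and all 13 were well above background on all 6 mTEC arrays, with none at background. Their mean level was 0.97 to 1.12 on the Cdx1-/- arrays and 1.08 to 1.20 on the Cdx1+/+ arrays, against −1.36 to −0.97 on the SIEC arrays. Between genotypes Lyz2, a lysozyme of myeloid cells, rose by 0.93 (limma, adjusted p = 0.00544). Fcgr3, an Fc receptor, rose by 0.77 (adjusted p = 0.00867, but 0.40 and 0.0786 with normexp). Mrc1, the macrophage mannose receptor, fell by 1.43 (adjusted p = 0.0032), and 10 did not pass. The median genotype difference of the 13 was −0.16. Ptprc, which encodes CD45, was above background on all 6 mTEC arrays, at −1.68 ± 0.24 in Cdx1-/- and −1.86 ± 0.22 in Cdx1+/+ mTEC (SD, n = 3 each). It was lower in mTEC than in SIEC, by a log2 difference of −1.31 (adjusted p = 0.000348), as was Itgam, an integrin gene of myeloid cells, by −2.64 (adjusted p = 0.000745). Most of the 13 markers went the other way, with 9 higher and 3 lower in mTEC and a median log2 difference of 2.61. Over all genes 34.3% were higher and 49.3% lower in mTEC. Of 7 B cell markers tested, all 7 were above background on all 6 mTEC arrays, with a mean level of −0.78 to −0.56 in Cdx1-/- and −0.50 to −0.40 in Cdx1+/+ mTEC. Blk and Cd79b, both of B cell receptor signalling, rose by 0.65 and 0.56, and Ebf1, a B lineage factor, fell by 0.63, calls that held in 17, 13 and 16 of 17 alternatives. The other 4 B cell markers did not pass, and the median genotype difference of the 7 was −0.34. Between the mTEC genotypes 11.1% of all genes tested passed. Which cells these signals come from, and their part in the Cd86 difference, was not tested.

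**Figure D3:**
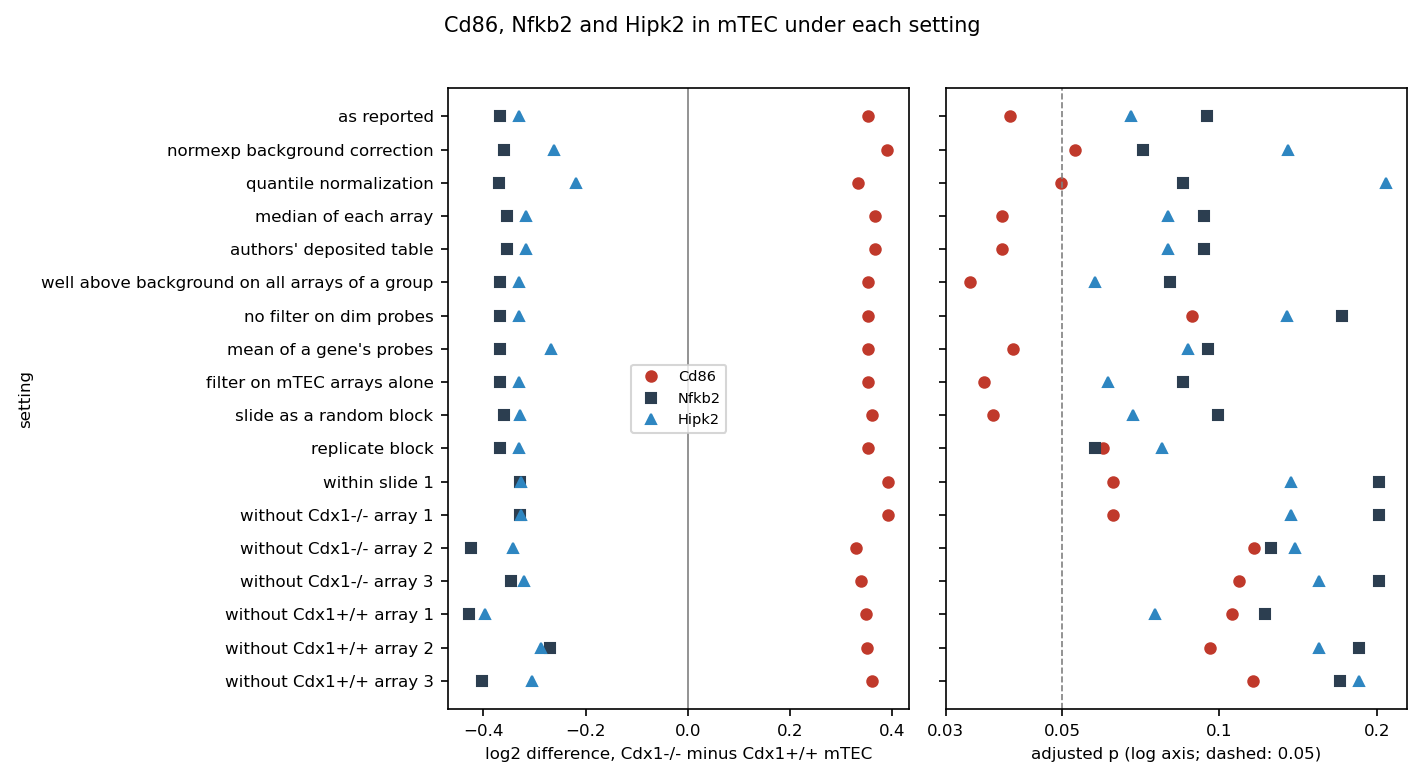
Log2 difference between Cdx1-/- and Cdx1+/+ mTEC (left) and its adjusted p (right, log axis, dashed line at 0.05) for Cd86, Nfkb2 and Hipk2, as reported and under each of 17 alternatives. The differences keep their sign, Cd86 lies left of the dashed line as reported and in 7 alternatives, and Nfkb2 and Hipk2 in none.

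The other genes of the NF-kB pathway did not pass between the genotypes. Of 21 units, receptors and kinases beside Relb and Nfkb2, 20 were tested and 0 passed (limma), where 11.1% of all genes did. At an unadjusted p under 0.05 there were 5, against 29.6% of all genes, and the median was 0.02. Cd40, a receptor upstream of the pathway, read 4.37 ± 0.10 in Cdx1-/- and 4.53 ± 0.02 in Cdx1+/+ mTEC, and Tnfrsf11b, the decoy receptor for RANK ligand, 3.35 ± 0.25 in Cdx1-/- and 3.79 ± 0.09 in Cdx1+/+ mTEC (SD, n = 3 each, adjusted p = 0.276 and 0.0949). Of 14 subunits of NuRD beside Chd4, 2 fell, where 5.76% of all genes fell, 12 did not pass, and the median was 0.01. Those 2 were Chd5, a close relative of Chd4, which fell by 0.80 (adjusted p = 0.0207), and Gatad2b, a scaffold subunit, which fell by 0.97 (adjusted p = 0.0403). Of 21 genes whose proteins have been described to act with Aire, the deacetylase gene Sirt1 fell by 0.60 (adjusted p = 0.0425) with 20 not passing and a median of −0.01. Of 9 close paralogs of the members Chd5 alone passed, and Fezf1 and Foxn4 had differences of 0.06 and 0.10. Over the alternatives the calls of Chd5, Gatad2b and Sirt1 held in 13, 9 and 4 of 17, and with the replicate number as a block those of Chd5 (adjusted p = 0.0571) and Sirt1 (0.0542) ended.

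Genes described as depending on Aire, Fezf2 or Foxn1 were listed as well. Their counts stand beside the 11.1% of all genes tested that passed between mTEC genotypes, 5.37% upward and 5.76% downward. Of 8 tested genes described as Aire-dependent, 4 fell, 4 did not pass, and the median was −0.51. Ins2, an insulin gene, fell by 1.25, to 2.10 ± 0.11 in Cdx1-/- against 3.35 ± 0.10 in Cdx1+/+ mTEC (SD, n = 3 each, adjusted p = 0.00384). The milk casein gene Csn1s2a fell by 0.55 (adjusted p = 0.0137), the trefoil factor gene Tff3 by 0.58 (0.0163) and Sbp by 0.59 (0.021). The calls of Csn1s2a, Tff3 and Sbp held in 14, 14 and 10 of 17 alternatives and that of Ins2 in all 17. Of 5 genes described as Fezf2-dependent, 2 fell, 1 rose and 2 did not pass. Fabp9, a testis fatty acid binding protein gene, fell by 2.23 (adjusted p = 0.00287), the apolipoprotein gene Apob fell by 1.45 (0.00384), and the epidermal keratin gene Krt10 rose by 0.82 (0.0103), each in all 17 alternatives. Of 15 Foxn1 targets and patterning genes of thymic epithelium, 2 rose, 13 did not pass, and the median was 0.14. Hoxa3, needed to form the thymus, rose by 1.69 (adjusted p = 0.00517, in all 17 alternatives). These lists were drawn up with results of these data known, so their directions are not independent evidence. The part of Aire, Fezf2 or Foxn1 in these differences was not tested.

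Among 8 tested ligands of costimulation and coinhibition other than Cd80 and Cd86, 1 rose, 1 fell, 6 did not pass, and the median was −0.20. Over all genes 5.37% rose and 5.76% fell. Tnfsf4, which encodes OX40 ligand, read −4.21 ± 0.28 in Cdx1-/- and −3.03 ± 0.25 in Cdx1+/+ mTEC (SD, n = 3 each), a fall of 1.18 (adjusted p = 0.0163). Cd276, a B7 family member, rose by 0.48 (adjusted p = 0.0317). Those calls held in 13 and 8 of 17 alternatives, and with normexp the differences were −0.47 for Tnfsf4 (adjusted p = 0.0569) and 0.31 for Cd276 (0.173). Cd70 read 4.47 ± 0.03 in Cdx1-/- and 4.73 ± 0.10 in Cdx1+/+ mTEC (SD, n = 3 each, adjusted p = 0.105), and Cd274, which encodes PD-L1, 2.72 ± 0.09 in Cdx1-/- and 2.85 ± 0.05 in Cdx1+/+ mTEC (adjusted p = 0.395).

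Between tissues, 9 of 10 members passed the test, 7 higher and 2 lower in mTEC, where 83.6% of all genes passed, 34.3% higher and 49.3% lower. Of the 15 probes 13 passed, against 82.2% of all probes. Aire, Fezf2, Foxn1, Cd86 and probe 2 of Cd80 were not well above background on either SIEC array, so their differences are lower bounds. Of the 7 higher members, 4 (Aire, Fezf2, Foxn1 and Cd86) entered the test through their mTEC signals alone, so the count is a description. The members' median difference was 3.26, against −0.43 over all genes. That median of all genes moved to −0.55 with normexp background correction, −0.13 with quantile normalization and −0.90 with median scaling or in the authors' deposited table, and differences near it depend on the scaling. The share of passing genes that were higher in mTEC was 41.1%, and 29.4% with normexp.

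Fezf2 was at least 327-fold higher in mTEC, with 4.56 ± 0.17 (SD, n = 6) in mTEC and measured signals of −5.44 and −5.82 on the SIEC arrays (adjusted p = 5.41e-09, limma over probes). Such bounds set the mTEC mean against the lowest signal that was still well above background on the SIEC arrays, while the adjusted p belongs to the measured signals. The probes given bounds here entered the test through their mTEC signals alone, so that p is no separate evidence that they are higher in mTEC. By the same measure Aire was at least 146-fold higher at probe 1 and 72.5-fold at probe 2, Foxn1 at least 121-fold, Cd86 at least 50.6-fold and Cd80 at least 48-fold at probe 2. These 6 probes kept their direction and their call in all alternatives run, but with normexp background correction their log2 differences were smaller than the bounds, at 6.65 for Fezf2 (bound 8.35), 5.38 and 4.53 for the Aire probes (7.19 and 6.18), 5.44 for Foxn1 (6.91), 4.25 for Cd86 (5.66) and 4.03 for Cd80 probe 2 (5.59). The bounds therefore hold for the processed signal of the files. At probe 1 of Cd80, which was above background on both SIEC arrays, mTEC were at 1.36 ± 0.14 (SD, n = 6) and SIEC at −1.25 (labelled Cdx1-/-) and −1.77 (labelled Cdx1+/+), a difference of 2.87 (7.33-fold, adjusted p = 1.65e-06). The 2 probes of Cd80 therefore gave different sizes and 1 direction.

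Nfkb2 was 12.6-fold higher in mTEC, with 5.29 ± 0.24 (SD, n = 6) in mTEC and 1.68 in SIEC labelled Cdx1-/- and 1.59 in SIEC labelled Cdx1+/+ (log2 difference 3.65, adjusted p = 2.29e-07). Relb was 3.40-fold higher at probe 1, with 5.50 ± 0.12 (SD, n = 6) in mTEC and 3.76 and 3.71 on the SIEC arrays (adjusted p = 1.97e-06). Its probe 2 gave 1.78 on the log2 scale. Probe 3, which lies far from the others and which the files place in a separate transcript model, went the other way, with −2.53 ± 0.19 (SD, n = 6) in mTEC and −1.56 and −1.96 in SIEC, a difference of −0.77 (adjusted p = 0.0044). That call ended without the SIEC array labelled Cdx1-/- (−0.46, adjusted p = 0.0595).

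Hipk2 and Chd4 were the 2 members lower in mTEC. At probe 1, Hipk2 was at 0.26 ± 0.20 (SD, n = 6) in mTEC and at 2.46 and 2.47 in SIEC, a difference of −2.21 (4.61-fold, adjusted p = 1.04e-06), and it stayed between −2.68 and −1.73 over the alternatives. Probe 2, far from it in the gene, read 0.79 ± 0.14 (SD, n = 6) in mTEC and 0.64 and 0.55 in SIEC, a difference of 0.19 (adjusted p = 0.177 over probes). The probes of Hipk2 thus disagreed on whether the tissues differ. Chd4 was at 4.47 ± 0.07 (SD, n = 6) in mTEC and at 4.92 and 4.86 in SIEC, a difference of −0.42 (adjusted p = 0.00494), which is that of the median gene and turned to 0.42 with quantile normalization (adjusted p = 0.0054).

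**Figure D4:**
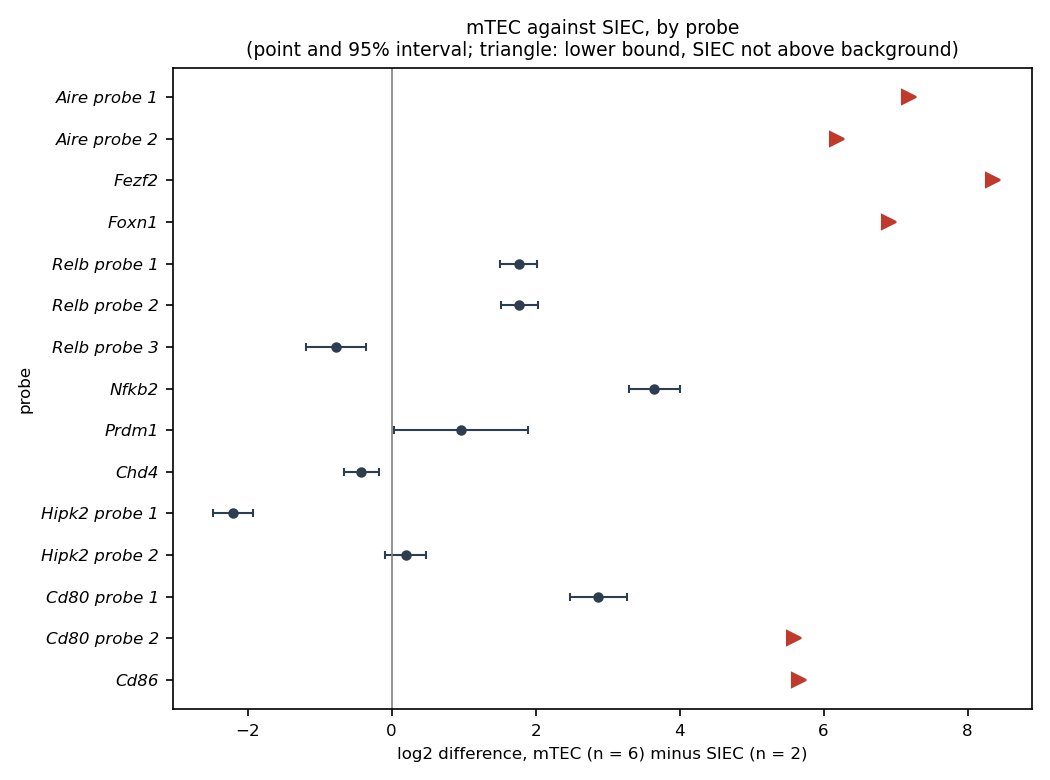
Log2 difference between mTEC (6 arrays) and SIEC (2 arrays) for each of the 15 probes (horizontal axis), with points and 95% intervals from limma or, as triangles, lower bounds where neither SIEC array was well above background. The 6 bounds lie between 5.59 and 8.35, and the probes of Relb and of Hipk2 differ in sign within each gene; with quantile normalization Chd4 turns positive.

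Prdm1 did not pass between tissues, with −1.29 ± 0.20 (SD, n = 6) in mTEC, −1.23 in SIEC labelled Cdx1-/- and −3.29 in SIEC labelled Cdx1+/+. The mTEC values lay beside the first SIEC array and above the second. The log2 difference was 0.96 (SE 0.40, adjusted p = 0.054), and without the SIEC array labelled Cdx1-/- it was 1.96 (adjusted p = 0.000202), so the result rests on which SIEC array is used.

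Slide and tissue were partly confounded, since slide 2 held both SIEC arrays and 1 Cdx1-/- mTEC array, and slide 1 the other 5 mTEC arrays. Within slide 2, where no spread can be had, mTEC minus SIEC was 8.12 for Aire probe 1, 9.92 for Fezf2, 3.39 for Nfkb2 and −2.38 for Hipk2 probe 1. With slide as a term in the fit, 9 of 10 members passed again, 7 higher and 2 lower.

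The counts for the lists around the members stand beside the 83.6% of all genes that passed between tissues, 34.3% higher and 49.3% lower in mTEC, and are a description. Of 20 tested NF-kB genes 16 were higher and 3 lower in mTEC, with a median of 1.05, among them Cd40 (at least 287-fold), Nfkbie, an inhibitor of NF-kB (50.6-fold), and Tnfrsf11b (log2 difference 7.09, above background on 1 of 2 SIEC arrays). Of 8 ligands all 8 were higher, with a median of 5.96 from the measured signals (6 of 8 with normexp), among them Cd70 (at least 335-fold, a log2 difference of 6.78 with normexp) and Cd274 (at least 95.2-fold). Of 14 NuRD subunits 3 were higher and 9 lower, with a median of −0.52 that turned to 0.16 with quantile normalization, and the largest differences were those of Chd5 (at least 3.96-fold higher), Gatad2a (4.29-fold lower) and Mbd2 (4.08-fold lower). Of 21 genes of proteins described to act with Aire 3 were higher and 16 lower, with a median of −0.66. The median of all genes was −0.43, and it moved from −0.90 with median scaling to −0.13 with quantile normalization. Sirt1 was 12.05-fold and Crebbp 4.90-fold higher, and Deaf1 4.68-fold lower, where the log2 difference of Crebbp ranged from 0.62 (mean of its probes) to 3.06 over the alternatives. The paralogs Foxn4 and Fezf1 were at least 33.6-fold and 4.36-fold higher. With normexp the log2 difference of Gatad2a was −0.93, and those of Chd5, Foxn4 and Fezf1, at 0.79, 3.44 and 1.10, were below their bounds. The lowest log2 differences of Cd40, Cd70 and Cd274 over the alternatives, 6.17, 6.78 and 4.58, were also below their bounds of 8.16, 8.39 and 6.57.

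Of 8 Aire-dependent genes 6 were higher and 1 lower in mTEC, with S100a8 at least 554-fold, Csn2 at least 368-fold and Csn1s2a at least 37.1-fold higher. Of 15 Foxn1 targets and patterning genes 10 were higher and 2 lower, with Pax1 at least 74.9-fold and Pax9 at least 38.3-fold higher. Of 5 Fezf2-dependent genes 2 were higher and 2 lower, with Fabp9 at least 110-fold higher, Apob 71.5-fold lower (log2 difference −6.16, −7.68 to −4.63 over the alternatives) and Maoa, a monoamine oxidase gene, also lower. With normexp the differences of Csn1s2a, Pax1, Pax9 and Fabp9 were 3.76, 4.67, 3.64 and 4.91, each also below its bound. The lowest log2 differences of S100a8 and Csn2 over the alternatives, 7.44 and 6.97, were below their bounds of 9.11 and 8.52 as well.

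The 2 SIEC arrays were compared as values without a test. Prdm1 was 2.06 higher on the array labelled Cdx1-/- (4.17-fold), the only member at least 2-fold apart, where 11.5% of all genes were. Among the members above background on both SIEC arrays, Cd80 differed by 0.52, Nfkb2 by 0.08, Chd4 by 0.07, Relb by 0.05 and Hipk2 by −0.01. A fit of all 8 arrays can set the genotype difference in mTEC against that in SIEC only by taking the lone SIEC arrays to vary as the mTEC arrays do, and by labels that Cdx1 goes against, so its p does not show that the tissues differ in the effect of genotype. In that fit Prdm1 alone was below the threshold, 1 of 10 members against 14.4% of all genes, at −2.0 (SE 0.32, adjusted p = 0.0115), a value that rests on the SIEC array at −3.29. With normexp background correction it was −1.02 (adjusted p = 0.116). For Aire the value was −0.62 (adjusted p = 0.0757), where the SIEC signals are at background.

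The genes whose profile over the 8 arrays was most like a member's were found by the root mean square distance between log2 profiles, each centred on its own mean, among 16280 genes. For Aire these were Il4i1, Mgp and Pakap, at distances of 0.09, 0.11 and 0.12. For Fezf2 they were Ucma (0.09), Fndc7 (0.16) and Madcam1 (0.17), and for Foxn1 Cadps (0.09), Ttll9 (0.12) and Arhgap44 (0.13). For Cd80, at probe 1, they were Tek (0.09), Capn2 (0.10) and Bnip5 (0.11). For Cd86 they were Tspan18 (0.07), Gpat2 (0.08) and Adamts14 (0.09), with log2 differences of 0.32, 0.33 and 0.17 between Cdx1-/- and Cdx1+/+ mTEC. The distance covers the mTEC arrays, so differences like that of Cd86 follow in part from how these genes were chosen. Aire, Fezf2, Foxn1 and Cd86 were at background in SIEC, so their profiles there follow the background.

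Of the 10 members 8 have promoter windows in the RefSeq table (GRCm38.p6), and the 250 bases before each start were searched on both strands for the kappa-B consensus, the motif bound by NF-kB dimers. It was found in Fezf2, Nfkb2 and Chd4, that is in 3 of 8 genes, against 8.23% of all genes with a window, and in 5 of 12 windows against 7.25% of all windows. Every window of Nfkb2 held a match, so the count of windows repeats the same gene. The first window of Nfkb2, chr19:46304487-46304736 (plus strand, GRCm38.p6), is shown because it held 3 matches, of which 2 overlap, starting 39, 38 and 11 bases before the start. Whether NF-kB acts through these matches was not tested. Capitals mark the matches.
Nfkb2 promoter: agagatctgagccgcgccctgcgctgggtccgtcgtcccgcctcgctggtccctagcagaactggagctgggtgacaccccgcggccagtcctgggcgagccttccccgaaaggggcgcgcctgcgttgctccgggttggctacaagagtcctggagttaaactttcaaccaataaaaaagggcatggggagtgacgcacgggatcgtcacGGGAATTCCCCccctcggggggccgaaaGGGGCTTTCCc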

How the data were processed

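Expression was measured on 8 one-colour Agilent arrays. The deposited scanner files give intensity on a linear scale. Per the file headers, the authors used Agilent Feature Extraction 10.7.3.1, which background-subtracted each array and did not normalize between arrays. The authors' deposited table holds the same intensity times 1 constant per array, with a median of 1, and the choice of that scaling is not stated in the sources used here.

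The log2 processed intensity minus the 75th percentile of the array was used, flagged outlier spots were dropped, and a gene was represented by the probe of highest mean that was well above background on 2 or more arrays of an mTEC group or on 1 SIEC array. Members are named by the files; other genes were named through RefSeq, by accession for 27506 probes. The fits used lmFit and eBayes of limma 3.58.1 (R 4.3.3), 2-sided, with Benjamini-Hochberg adjustment over all features tested and a threshold of 0.05, with the 6 mTEC arrays for genotype, and all 8 with genotype as a term for tissue. The scripts were tested on simulated data. Plots used Python 3.11.15, pandas 2.3.3 and matplotlib 3.10.9.

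The members, the 8 pathway lists and the 11 marker lists were chosen with earlier results of these data known. Named beside the members are, per pathway list, up to 4 genes passing between mTEC genotypes and the 3 of largest tissue difference, and, per marker list, those passing; 1 gene that this rule names is not reported here. Replicate numbers come from the sample titles. Between same-numbered mTEC arrays, departures from the group mean had correlations of 0.26, 0.12 and 0.12, which do not settle whether the numbers pair the arrays. The reported genotype fit did not pair them. A fit with the replicate number as a block was run as an alternative, and in it Cd86 did not pass (limma, adjusted p = 0.0598). Slides and scans split the arrays alike. Alternatives were the background correction, scaling, filter, choice of probe, slide, replicate block and each array left out, and those for single probes, for the genotype difference in mTEC minus that in SIEC and for a filter on mTEC arrays alone were chosen after the data were seen.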

Additional observations from a re-analysis of the deposited data

Results flagged for a closer look

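For Prdm1, the genotype difference in mTEC minus that between the SIEC arrays was −2.0 (limma, adjusted p = 0.0115), with 0.06 in mTEC and 2.06 between the SIEC arrays by their labels, and it did not pass with normexp (−1.02, adjusted p = 0.116). The value rests on the SIEC array labelled Cdx1+/+ at −3.29, while the other 7 arrays lay between −1.50 and −0.93. For Cdx1 itself it was −2.59 (adjusted p = 0.00178), with −0.99 in mTEC and 1.61 between the SIEC arrays. Both rest on 1 array per genotype in SIEC, assumed to vary like the mTEC arrays and with labels that the Cdx1 values go against, so they do not show that the effect of genotype differs between the tissues. No group held enough arrays for a search for outlying samples.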

How the results depend on the processing

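Over 17 alternatives in mTEC, the members other than Cd86 did not pass in any, and the near-zero differences of Aire (−0.08 to 0.04), Fezf2 (−0.12 to 0.13), Foxn1 (−0.07 to 0.09), Prdm1 (−0.11 to 0.18) and Cd80 (−0.12 to 0.05) took both signs. Of the 10 members 1 passed as reported, and 0 with normexp, with no filter on dim probes, with the replicate block, within slide 1 and with any 1 array left out. Genes passing in mTEC numbered 2812 as reported, 1690 with normexp, 1298 with no filter, 1356 within slide 1, 2616 with the replicate block and 697 (without Cdx1+/+ replicate 3) to 1356 with 1 array left out. For probes these counts were 3042, 1561, 716, 1004, 2040 and 436 to 1054. The replicate block changed no other member's call.

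Between tissues, quantile normalization turned Chd4 to 0.42 and Hipk2 to 0.37, where another probe of Hipk2 became the brightest. Prdm1 passed with a filter asking for all arrays of a group (adjusted p = 0.0477), without Cdx1-/- mTEC replicate 3 (1.08, adjusted p = 0.0421) and without the SIEC array labelled Cdx1-/-. Members passing numbered 9 to 10 with 1 array left out, genes 20450 to 21021, and probes 43552 with no filter against 28947 as reported and 27793 to 28763 with 1 array left out. For the difference between the tissues' genotype differences, 3645 genes passed as reported, 618 with normexp, 2276 with no filter and 2460 to 3085 with 1 mTEC array left out, and 4327 probes as reported, 471, 1949 and 2615 to 3450. Of the members 1 passed as reported, 0 with normexp and 1 with any 1 mTEC array left out. Genes at least 2-fold apart in the SIEC pair numbered 2916 as reported, 452 with normexp and 4408 with no filter. Except where stated above, the causes were not tested. The 6 member probes at background in SIEC have a tissue difference whose size is limited by background and not by replicate spread.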

Other observations

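Markers of specialised mTEC states moved between the genotypes beside the members. Over all genes tested 5.37% rose and 5.76% fell. Of 7 markers of tuft-like mTEC 5 rose in Cdx1-/- mTEC (2 did not pass, median 0.83). Among those 5 were Avil, an actin-binding protein gene, by 1.06 (limma, adjusted p = 0.00938), and the channel gene Trpm5 by 0.83 (0.0182). The calls of Avil and Alox5 held in 17 and 16 of 17 alternatives, and those of Trpm5, Gnat3 and Il25 in 12, 10 and 10, each ending within slide 1. Of 6 keratinocyte-like markers 4 rose (2 did not pass, median 0.77), among them Spink5, a protease inhibitor gene, by 1.11 (0.00523), and the call of Krt80 held in 10 of 17 alternatives. Of 10 small intestine markers 9 fell (1 did not pass, median −1.08). Of 11 markers of mature mTEC, the chemokine gene Xcl1 fell by 0.97 (0.0134) and 10 did not pass, of 5 immature mTEC markers 0 passed with 3 at an unadjusted p under 0.05, and of 7 cortical epithelium markers 0 passed with 1 at an unadjusted p under 0.05. Over all genes 29.6% were at an unadjusted p under 0.05. Ptcra of 12 thymocyte markers, Pdgfrb of 6 fibroblast markers and Tie1 of 6 endothelial markers fell by 0.49, 0.79 and 0.62, calls that held in 8, 16 and 8 of 17 alternatives, and Tie1 was at −0.33 with normexp (adjusted p = 0.11).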
